A study of Mus musculus with 5 samples.

Results

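The Socs3 locus carried 31 of the 5670 regions, 0.547% of the list, that were drawn from ChIP-seq of Stat3 and of the glucocorticoid receptor (GR) in AtT-20 cells. AtT-20 is a mouse pituitary tumour line that stands in for corticotrophs, the ACTH-secreting cells of the pituitary. The 31 regions are every entry of the list on chromosome 11 between positions 117597375 and 117895855 (mm9). They were chosen by the spacing of the listed positions, as the run with the most regions when those at most 50 kb apart are linked, so their number and crowding describe the choice and were not tested.

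ChIP-seq recovers and sequences DNA bound by a chosen protein. All cells were AtT-20 grown in medium with serum and treated for 20 min. Stat3 was mapped after LIF (leukemia inhibitory factor, a cytokine acting through Stat3) and after Dex+LIF, where Dex is dexamethasone, a synthetic ligand of GR. GR was mapped after Dex+LIF and after Dex alone, and the control was made with rabbit IgG pooled from the treatments. Each group was 1 library made from 5 pooled ChIPs, so there is no replicate error, and no untreated group is among them. Stat3 was recovered with antibodies to Stat3 and to its phosphorylated form together. The deposited list names a position and 1 of 13 cluster numbers for each region and gives no value per library, so nothing in it assigns a region to Stat3, to GR or to a treatment, and neither the sequencing depth nor the background in IgG is known here.

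Socs3 encodes a suppressor of cytokine signalling. Cytokines of the LIF and interleukin-6 family activate Jak kinases, which phosphorylate Stat3, and Stat3 then enters the nucleus and switches on Socs3. The Socs3 protein binds the receptor and its Jak kinases and shuts the signal off, which makes it a classical negative feedback gene of the pathway. In corticotrophs, LIF stimulates the ACTH precursor gene, glucocorticoids repress it, and Socs3 restrains the LIF signal.

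The reference sequence before the start of Socs3 is shown because the listed regions within the gene, whose position was known to the nearest kb, lay at its 5′ end. RefSeq gives 250 bases at chr11:117969367-117969616 on the minus strand of GRCm38.p6, a later build than mm9, so these coordinates cannot be read against the listed positions. Capitals mark the match to the STAT motif TTCNNNGAA, which reads the same on both strands.
Socs3 promoter: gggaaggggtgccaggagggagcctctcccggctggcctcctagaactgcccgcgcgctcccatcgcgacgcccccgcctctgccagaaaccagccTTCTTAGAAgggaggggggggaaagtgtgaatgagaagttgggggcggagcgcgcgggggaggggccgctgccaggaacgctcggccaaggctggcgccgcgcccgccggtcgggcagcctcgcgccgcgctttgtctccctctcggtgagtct

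The match, TTCTTAGAA, runs from 154 to 146 bases before the annotated start. The same 250 bases hold no match on either strand to the full GR motif, which is GNACA and TGTNC with 3 bases between them, and none to the short GR motif AGAACA. Among 32851 RefSeq promoters cut to the same length, 7.02% held the STAT motif, 0.387% the full GR motif and 16.1% the short one. The Socs3 sequence was 71.6% G and C, against a median of 52.4% over these promoters, and 7.35% of them were at or above it. A match is a description of the letters and not a measured binding site, and whether a listed region covers it was not tested.

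The mm9 position of Socs3 was known only to the nearest kb, as about 117.827 to 117.831 Mb. Distances below are counted from the nearer end of this interval and carry that rounding. Likewise, inside the gene body means inside this rounded interval, and a region near its end may lie just outside the gene. Socs3 is read from the minus strand per RefSeq, so higher positions lie on its 5′ side and lower positions on its 3′ side. The stretch was lopsided around the gene. It held 23 regions on the 3′ side, 3 inside the gene body and 5 on the 5′ side. It reached 229.6 kb past the gene on the 3′ side and 64.9 kb on the 5′ side. Beyond it, the nearest listed regions were 108.6 kb lower (cluster 2) and 159.1 kb higher (cluster 3).

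**Figure D1:**
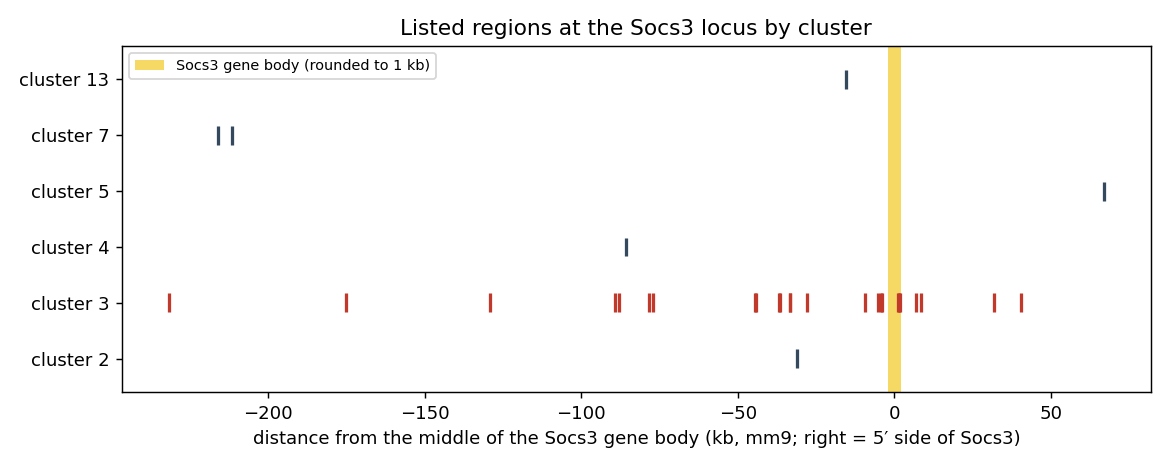
Each tick is 1 of the 31 listed regions, placed by distance in kb from the middle of the Socs3 gene body (x axis, mm9) and by its cluster number (y axis). The 25 regions of cluster 3 lie from 231.6 kb on the 3′ side to 40.3 kb on the 5′ side of that middle. All 3 regions within the gene interval (yellow band, known to the nearest kb) are in cluster 3.

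Cluster 3 dominated the locus. It held 25 of the 31 regions, 80.6% (exact 95% Clopper-Pearson interval 62.5% to 92.5%, counting error only), against 43.5% of the whole list and 45.9% of the 512 regions on chromosome 11. Regions of 1 locus are not independent of each other, so this interval is narrower than the real uncertainty. The other 6 regions were 2 of cluster 7 (11.0% of the list) and 1 each of clusters 2 (11.6%), 4 (5.86%), 5 (6.65%) and 13 (2.05%). Clusters 1, 6, 8, 9, 10, 11 and 12 had none of the 31. Cluster 6 is the third largest class, with 629 regions or 11.09% of the list. The exact 95% interval for none of 31 reaches 11.22%, so the count cannot tell its absence from its list share. The other absent clusters each held 0.106% to 3.49% of the list. The 25 regions were 1.014% of all 2465 cluster 3 regions.

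Closest to the gene, cluster 3 was the only class. All 9 regions within 10 kb of Socs3 belonged to it, as did 18 of the 20 within 50 kb and 22 of the 26 within 100 kb. Farther out, between 100 and 250 kb on the 3′ side, 3 of 5 regions were in cluster 3. Each of these counts is read against the 43.5% of the list that is in cluster 3.

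Inside the gene body the 3 regions lay at 117830115, 117830565 and 117830785. They were 450 and 220 bp apart, and all fell in the last kb of the rounded interval, at the 5′ end. With that end known only to the nearest kb, those closest to it may lie just outside the gene. No region was listed in the rest of the gene body. On the 3′ side the next regions were at 117825045, 117824840 and 117823625, which is 2.0, 2.2 and 3.4 kb from the gene, and another was at 117819630, 7.4 kb away. On the 5′ side the next were at 117835810 and 117837540, 4.8 and 6.5 kb from the gene. These 9 regions of cluster 3 and a cluster 13 region at 117813685, 13.3 kb away on the 3′ side, form 1 group when regions at most 10 kb apart are linked. With 10 regions in 23.9 kb it was the largest such group in the list. The next largest size was 8, which is also the size of the second core of this same stretch, described next.

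A second core lay on the 3′ side, 25.9 to 42.3 kb from Socs3. It held 8 regions in 16.4 kb, 7 of them in cluster 3 and 1, at 117797870, in cluster 2. Of the cluster 3 regions, 6 came as 3 tight pairs. The first pair was at 117784655 and 117784865, 210 bp apart. The second was at 117792235 and 117792500, 265 bp apart. The third was at 117795560 and 117795800, 240 bp apart. The remaining cluster 3 region was at 117801095, the end of the core nearest the gene. From 117792235 to 117801095 there were 6 regions in 8.9 kb, as many as in the 7.2 kb from 117823625 to 117830785 that reaches into the gene. The gene and the second core were therefore equally crowded at the scale of 10 kb.

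Another group, 75.1 to 87.2 kb from Socs3 on the 3′ side, held 5 regions in 12.1 kb. Of these, 4 were in cluster 3, at 117739795, 117741185, 117750625 and 117751905, and they formed 2 pairs 1390 and 1280 bp apart. Between the pairs lay the only cluster 4 region of the locus, at 117743360. The 3 groups together, which held 23 regions from 117739795 to 117837540, contained 20 of the 25 cluster 3 regions.

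Outside these groups the regions were sparse. On the 5′ side, cluster 3 regions at 117860745 and 117869305 lay 29.7 and 38.3 kb from the gene, and the stretch ended with its only cluster 5 region at 117895855. On the far 3′ side, cluster 3 regions at 117700035, 117653765 and 117597375 stood alone, 127, 173.2 and 229.6 kb from the gene. Between the last 2 of these lay both cluster 7 regions, at 117612925 and 117617555, 4.6 kb apart and more than 200 kb from Socs3. The 6 regions of other clusters were thus spread from one end of the stretch to the other, and only the cluster 7 regions lay next to a region of their own class.

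The spacing was short and uneven. The median distance between successive regions was 4.31 kb over the 30 intervals, against 111.4 kb over the whole list. Of the 30, 22 were at most 10 kb, 6 were over 20 kb, and the widest was 46.3 kb. Another listed region lay within 10 kb of 27 of the 31 regions (29.5% of the list) and within 1 kb of 11 of them (10.8% of the list). These shares follow from how the stretch was chosen.

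**Figure D2:**
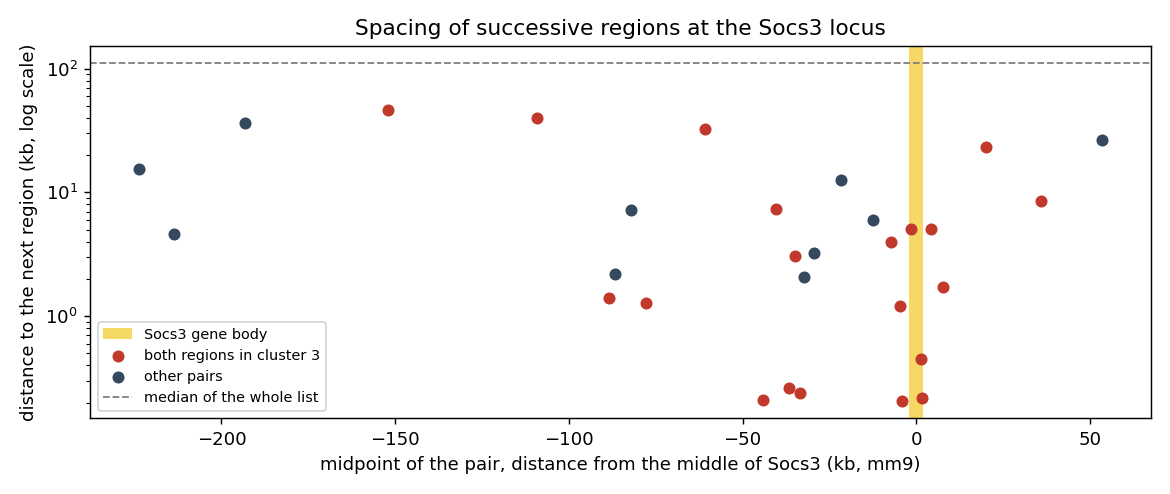
Each point is 1 of the 30 intervals between successive regions, with its length in kb (y axis, log scale) against its distance from the middle of Socs3 in kb (x axis). The shortest intervals, 205 to 450 bp, lie at the gene and in the core near 40 kb on its 3′ side, join cluster 3 regions only, and all 30 lie under the median of the whole list (dashed line, 111.4 kb).

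Of the 30 intervals, 20 joined 2 regions of cluster 3, against 20.2% of successive regions over the whole list. All 6 intervals of at most 1 kb joined 2 regions of cluster 3. Over the whole list 21.0% of the 319 intervals of that length did so. Of the 6, 5 were between 200 and 300 bp (205, 210, 220, 240 and 265 bp), and these were 5 of the 18 cluster 3 pairs at that distance in the list. None of the 14 intervals under 200 bp in the list was at this locus. Of the 22 intervals up to 10 kb, 16 joined regions of cluster 3, against 19.5% over the list. These pair counts follow in large part from the 80.6% of the stretch that is in cluster 3. They are a description and no separate result. The width of the regions is not listed, so whether such close points are separate peaks or parts of 1 was not tested.

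Along the chromosome, cluster 3 regions followed each other without another class between them in 2 long series. One had 11 members over 49.7 kb, from 117819630 to 117869305, and spanned the gene. The other had 8 members over 45.2 kb, from 117750625 to 117795800. Only 1 other series in the list had 11 members of 1 cluster in succession, on chromosome 9, and it was spread over 5674 kb. At the Socs3 locus 8 successive cluster 3 regions lay within 13.9 kb, and the tightest 8 of 1 cluster elsewhere took 481.5 kb. For 4 in succession the spans were 3.6 kb here and 3.2 kb elsewhere. These spans follow in large part from the choice of a crowded stretch and from its share of cluster 3, and are given as a description.

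Whether the fullest window of the list lay at Socs3 depended on its width. In windows of 20, 50, 100 and 200 kb the fullest window of the list lay in the stretch, with 9, 16, 23 and 27 regions, and the fullest elsewhere had 7, 9, 15 and 16. In windows of 10, 5 and 2 kb the fullest lay elsewhere, with 7, 5 and 4 regions against 6, 4 and 3 in the stretch. At 1 kb both had 3, which at Socs3 are the 3 regions in the gene body. The window of 10 kb with 7 regions was on chromosome 1 (74941905 to 74948665), and 2 of its regions were in cluster 3.

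Counted for cluster 3 alone, the locus held the fullest window at widths from 10 to 200 kb. There were 6 regions in 10 kb, 9 in 20 kb, 14 in 50 kb, 20 in 100 kb and 23 in 200 kb. Elsewhere the fullest windows of cluster 3 held 4, 4, 4, 6 and 7. At 1, 2 and 5 kb the locus and the rest of the list were level, with 3, 3 and 4. No other cluster exceeded these outside numbers except cluster 6, which reached 5 in 50 kb on chromosome 10. Of the 25 cluster 3 regions at the locus, 22 had another of the same cluster within 10 kb, against 14.5% of cluster 3 in the whole list. Like the spacing, these windows and neighbours follow in large part from the choice of a crowded stretch and from its share of cluster 3.

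**Figure D3:**
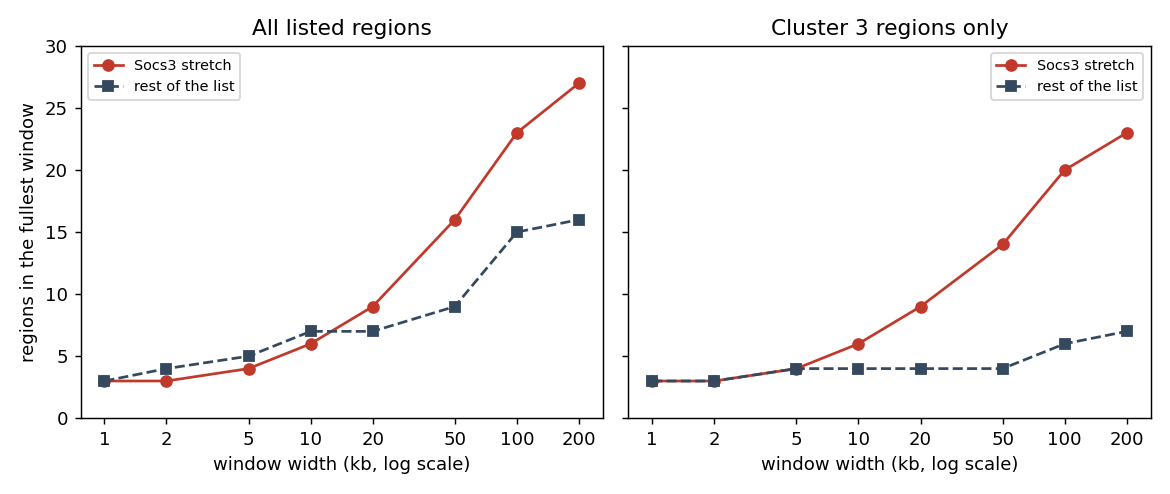
Regions in the fullest window (y axis) against the width of the window in kb (x axis, log scale) for the Socs3 stretch (red circles) and the rest of the list (dark squares), for all regions (left) and cluster 3 alone (right). With all regions the stretch leads from 20 kb on, and with cluster 3 alone it leads at each width from 10 to 200 kb, with 20 regions against 6 at 100 kb. The stretch was chosen for its crowding, so both panels are a description.

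Linked at 50 kb, the list formed 19 other runs of 8 or more regions, the largest with 15 on chromosome 10. The Socs3 run, with 103.9 regions per Mb, was not the densest over its whole length, since 7 of these shorter runs were denser (up to 328.9 per Mb). Its cluster makeup was the most one-sided of the 20, although 1 run came close. The share of the commonest cluster was 80.6% at Socs3 and from 25.0% to 77.8% in the others, with a median of 44.4%. The run with 77.8% lay on chromosome 18 and had 7 of 9 regions in cluster 3. The 4 next largest runs, with 12 to 15 regions, had 6.7% to 21.4% in cluster 3. Cluster 3 was the commonest cluster, ties included, in 12 of the 19 other runs, and its median share over the 19 was 33.3%. The number of clusters present did not set Socs3 apart, with 6 there and 3 to 7 in the others.

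**Figure D4:**
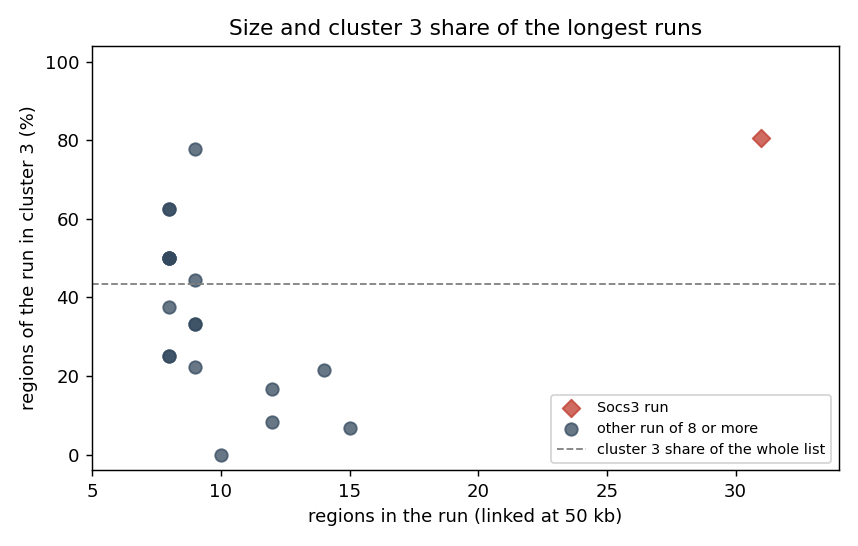
Share of regions in cluster 3 (y axis, %) against the number of regions (x axis) for the 20 runs of 8 or more regions linked at 50 kb, where some points coincide. The Socs3 run (red diamond) has 31 regions and 80.6%, and the other runs have 8 to 15 regions and 0% to 77.8%, on both sides of the 43.5% of the whole list (dashed line).

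Other genes share the neighbourhood, and no region is assigned to any of them. In RefSeq's gene order for GRCm38.p6, the 5 genes next to Socs3 on its 3′ side were Gm11725, a long non-coding RNA gene, Tha1, Tmem235, Birc5, which encodes the apoptosis inhibitor survivin, and Afmid, which encodes a formamidase of tryptophan breakdown. On the 5′ side they were Pgs1, which encodes an enzyme of cardiolipin synthesis, Mir6933, Dnah17, an axonemal dynein gene, Gm38514 and Cyth1, an exchange factor for ARF GTPases. An mm9 annotation was not used here, so which regions lie in exons, introns or promoters of these genes is not stated. Which gene a region acts on cannot be read from its position.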

How the data were processed

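Per the labels, AtT-20 cells gave 5 ChIP-seq libraries, 1 per group, with 36 bp reads from an Illumina GAIIx. The submitters' processing notes name Bowtie, MACS 1.3.7.1 and mm9. Not given in the sources used here are the merging of regions across libraries and the clustering. The deposited list holds 5670 points on 20 chromosomes, each with start equal to end, at multiples of 5 bp. Positions are printed as listed, and whether they count from 0 or 1 is not given. Region numbers run to 5874, and 204 have no entry here and were not analysed here, but none of these falls between 1260 and 1290, the numbers of the Socs3 stretch.

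Distances, runs, windows and cluster shares were computed in Python 3.11.15 with SciPy 1.17.1, and the linking was tested on simulated positions. A window was counted from each region as its first member. No test was made, since each group is 1 library and the stretch was chosen by its crowding. The members, the tables and the rule for named genes (Socs3 and the 5 genes on each side in gene order) were chosen with earlier results of these data known. The alternatives were other linking distances, window widths, merging of close regions and the reference point in Socs3.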

Additional observations from a re-analysis of the deposited data

How the results depend on the processing

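The run that holds Socs3 was the largest of the list at each linking distance tried, but its size followed the distance. It had 10 regions when linked at 10 kb and 18 at 20 kb, against 31 at 50 kb. It had 21 at 30 kb and again 31 at 100 kb. The fullest window in the stretch had 9 regions at 20 kb, against 23 at 100 kb. Widths of 1, 2, 5, 10 and 500 kb were added after seeing the data, and gave 3, 3, 4, 6 and 34 regions, where the last takes in 3 regions beyond the stretch. A shorter distance or window holds fewer regions by construction. The share of cluster 3 was 87.0% in the fullest 100 kb window (20 of 23). It was 76.0% with same-cluster regions within 1 kb merged (19 of 25, against 43.1% of the list merged alike). With groups within 10 kb counted once by their first region it was 66.7% (6 of 9, list 45.1%), which counts the group at the gene as cluster 13. Counted by their commonest cluster, an alternative added after seeing the data, it was 77.8% (7 of 9, list 42.7%). These shares lie within the interval of 62.5% to 92.5% given for the 31 regions. That interval is wide and the alternatives reuse the same regions, so lying within it is no check of the share. The 9 groups are also few, and their share was not tested against the list. Counting from the middle of Socs3 left 9 regions within 10 kb and 20 within 50 kb, and the promoter kept 1 STAT motif match. No paired analysis was possible because each group is 1 library and the list has no value per library. The unknown depth limits every count of regions.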
